A study of Mus musculus with 24 samples.

Results

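The genes described here encode nuclear subunits of the 5 complexes of oxidative phosphorylation. They were chosen by name alone, as protein-coding genes of the deposited table whose symbols begin with Nduf (other than the Ndufaf assembly factors), Uqcr, Cox4 to Cox8 or Atp5, or are Sdha, Sdhb, Sdhc or Sdhd. The rule took 85 of the 32561 genes in the table, and 83 of them were among the 9933 genes that passed the filter. The filter asked for a deposited TPM of at least 1 in at least 4 libraries. That TPM is scaled by genomic span, so genes of short span passed more readily. Complex I has 39 tested genes, complex II has 4, complex III has 8, complex IV has 16 and complex V has 16. The 2 genes below the filter were Cox4i2 and Atp5g2. The rule is by symbol, so Ndufa4, whose protein purifies with complex IV, is counted in complex I, and the intronless copy Cox5b-ps is counted in complex IV. Cyc1, the cytochrome of complex III, falls outside the rule and is listed with the carriers below.

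The 5 complexes sit in the inner mitochondrial membrane. Complexes I and II feed electrons from NADH and succinate to ubiquinone, complex III passes them to cytochrome c, complex IV hands them to oxygen, and complex V uses the resulting proton gradient to make ATP. Most subunits are made from nuclear genes and a few from mitochondrial DNA, and several complex IV subunits have a general isoform and an isoform found mainly in muscle and, for some, in brown fat. The mouse aorta holds smooth muscle, endothelium and fibroblasts, and its surrounding fat can contain brown adipocytes, which are rich in mitochondria.

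RNA was measured in 24 aortas of mice congenic on the 129S1/SvlmJ background, aged 44 to 53 days, with 4 libraries in each of 6 groups, from separate animals per the labels. In each of 3 strata, Kl/Kl mice, which carry 2 copies of a recessive Klotho mutation and have renal failure per the labels, were set against controls with healthy kidneys. The strata were Bmp2+/+ males, Bmp2+/+ females, and males homozygous for the Bmp2 allele ∆UCS. Controls carried 1 mutant Klotho copy (Klotho +/Kl), except 1 that carried none, and all aortas were flash frozen. Beyond its name the ∆UCS allele is not described in the sources used here, and ∆UCS females were not analysed here.

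Estimated depth was 20593000 to 61109000 reads per library, and a tested gene of the 5 complexes had between 20 and 198712 estimated reads in a library. The share of the mitochondrial genome's own genes was 40.2% to 61.2% of a library's total, which shifts all nuclear genes in the deposited TPM, a length-scaled share of each library's reads. Over all tested genes the median log2 change of Kl/Kl against control was 0.09 (Bmp2+/+ males), 0.29 (Bmp2+/+ females) and 0.26 (∆UCS males). The main counts and medians are therefore also given after median-of-ratios scaling. It divides a library by the typical ratio of its nuclear genes to their mean over libraries. It brought the medians over all tested genes to −0.02, −0.02 and 0.02. TPM and log2 changes of single genes of the 5 complexes are with the deposited scaling unless another is named, and many were not repeated with the other. In 2 libraries, replicate 1 of the Bmp2+/+ Kl/Kl males and replicate 2 of the Kl/Kl females, the balance of Xist, an X-linked transcript, and Ddx3y, on the Y chromosome, did not match the sex on the label. Values are from the other 22 libraries unless 24 are named.

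The nuclear subunit genes lay lower in Kl/Kl than in control aortas relative to the rest of the genes, but with the deposited scaling no single gene passed the test. In Bmp2+/+ males 77 of 83 tested genes (92.8%) had a negative log2 change, against 38.7% of all genes tested. In females 63 (75.9%) did, against 20.9%, and in ∆UCS males 51 (61.4%) did, against 18.0%. In the order Bmp2+/+ males, females, ∆UCS males, their median log2 change was −0.32, −0.18 and −0.04, which is 0.41, 0.47 and 0.30 below the median of all genes. After median-of-ratios scaling the medians were −0.48, −0.65 and −0.38, with 81, 80 and 75 of the 83 genes negative. The medians of all genes were −0.02, −0.02 and 0.02 on that scale, so the deposited shares of negative genes do not apply to it. With all 24 libraries the medians were −0.22, −0.14 and −0.04 with the deposited scaling and −0.39, −0.55 and −0.38 with the other.

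Calls were made with limma across all 9933 genes at a Benjamini-Hochberg adjusted p under 0.05. With the deposited scaling it called 0 of the 83 genes in Bmp2+/+ males, where 1.1% of all genes were called and 0.0604% were called lower. It called 0 in females, where the shares of all genes were 2.6% and 0.0201%, and 0 in ∆UCS males, where they were 0.644% and 0.111%. At an unadjusted p under 0.05, 11 genes were lower and 0 higher in Bmp2+/+ males, where 2.39% of all genes were lower. In females 8 were lower and 1, Cox7a2l, higher, where the background was 1.85% lower and 23% higher. In ∆UCS males 16 were lower and 2, Cox6b2 and Atp5g1, higher, against 2.96% and 13.8%. After median-of-ratios scaling limma called 0, 2 and 0 genes, all lower, where 0.252%, 1.54% and 0.564% of all genes were called lower. At an unadjusted p under 0.05, 7, 27 and 18 genes were lower on that scale, against 6.9%, 11.7% and 8.23% of all genes. The 2 called genes were Uqcrc1 and Ndufa4l2, which limma voom on estimated reads also called in females, with 0 in the other strata. Voom called 0.144%, 0.847% and 0.424% of the 22183 genes it tested lower in the 3 strata. With all 24 libraries limma, under either scaling, and voom called 0 of these genes in each stratum. Limma then called 0% of all genes, except 0.0101% in ∆UCS males after median-of-ratios scaling.

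The groups of some genes did not overlap among the 22 kept libraries, fewer among all 24. All kept Kl/Kl libraries lay below all controls for 13 genes in Bmp2+/+ males, where 1.19% of all genes did so, for 6 in females, where 1.64% did, and for 13 in ∆UCS males, where 2.1% did. The reverse held for 0 genes, 1 gene (Atp5g3) and 1 gene (Cox7a2l), where the background was 5.73%, 28.2% and 8.17%. After median-of-ratios scaling the counts of genes lying lower without overlap were 4, 22 and 8, against 4.45%, 8.6% and 6.16% of all genes. With all 24 libraries and the deposited scaling the counts lying lower were 1 (Cox7a1), 3 and 13, where 0.282%, 0.503% and 2.1% of all genes did so, and the counts lying higher were 0, 0 and 1, against 0.775%, 11.7% and 8.17%. After median-of-ratios scaling with 22 libraries, the counts in Bmp2+/+ males, both without overlap and at an unadjusted p, were close to the background share. In bulk tissue, fewer cells of a type and less RNA per cell cannot be told apart.

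**Figure D1:**
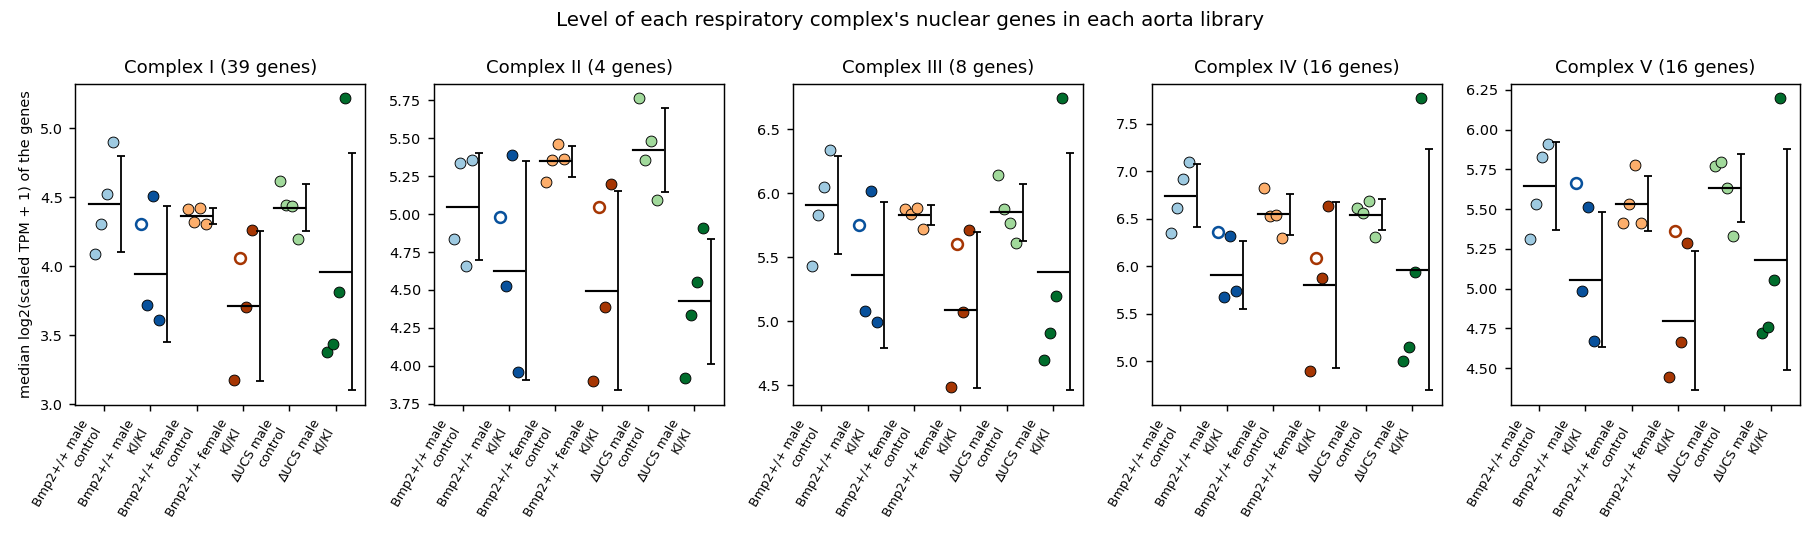
Median log2(scaled TPM + 1) of the tested genes of each complex in each library after median-of-ratios scaling; each vertical axis is in log2 units and does not start at 0. Filled points are the 22 kept libraries, open points the 2 libraries whose sex-linked transcripts went against their labels, bars the mean of the kept libraries and whiskers 1 SD; 1 ∆UCS Kl/Kl male library lies above all others in complexes I, III, IV and V.

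The per-library median over the 83 genes shows how uneven the Kl/Kl aortas were. In deposited log2(TPM + 1) units the Bmp2+/+ male controls were at 5.26, 5.11, 5.40 and 4.97 and the kept Kl/Kl males at 5.21, 4.78 and 4.57. Female controls were at 4.76, 5.14, 4.999 and 4.90 and the kept Kl/Kl females at 4.598, 4.64 and 4.88. ∆UCS male controls were at 4.93, 4.90, 5.20 and 5.19, and the ∆UCS Kl/Kl males at 4.84, 4.86, 4.79 and 5.53. The groups overlapped in Bmp2+/+ males and females, and in ∆UCS males 3 of the 4 Kl/Kl libraries lay below all controls and the last, replicate 4, above all of them. The 2 libraries that were left out stood at 5.15 and 5.02, within the range of their own controls. After median-of-ratios scaling the ∆UCS Kl/Kl males spread further, to 4.22, 4.35, 4.65 and 6.03.

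By complex, complexes II and III showed lower medians than complex V in every stratum. With the deposited scaling the median log2 change in Bmp2+/+ males, females and ∆UCS males was −0.32, −0.16 and −0.04 for complex I. It was −0.27, −0.32 and −0.47 for complex II. For complex III it was −0.40, −0.35 and −0.19. For complex IV, cytochrome c oxidase, it was −0.34, −0.17 and −0.05. For complex V it was −0.20, 0.00 and 0.07. Median-of-ratios scaling gave −0.48, −0.62 and −0.34 for complex I. It gave −0.43, −0.78 and −0.80 for complex II and −0.57, −0.82 and −0.54 for complex III. Complex IV was at −0.50, −0.66 and −0.39 and complex V, the highest in each stratum under either scaling, at −0.37, −0.47 and −0.27. Differences between complexes were not tested, since the genes of a complex are not replicates.

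**Figure D2:**
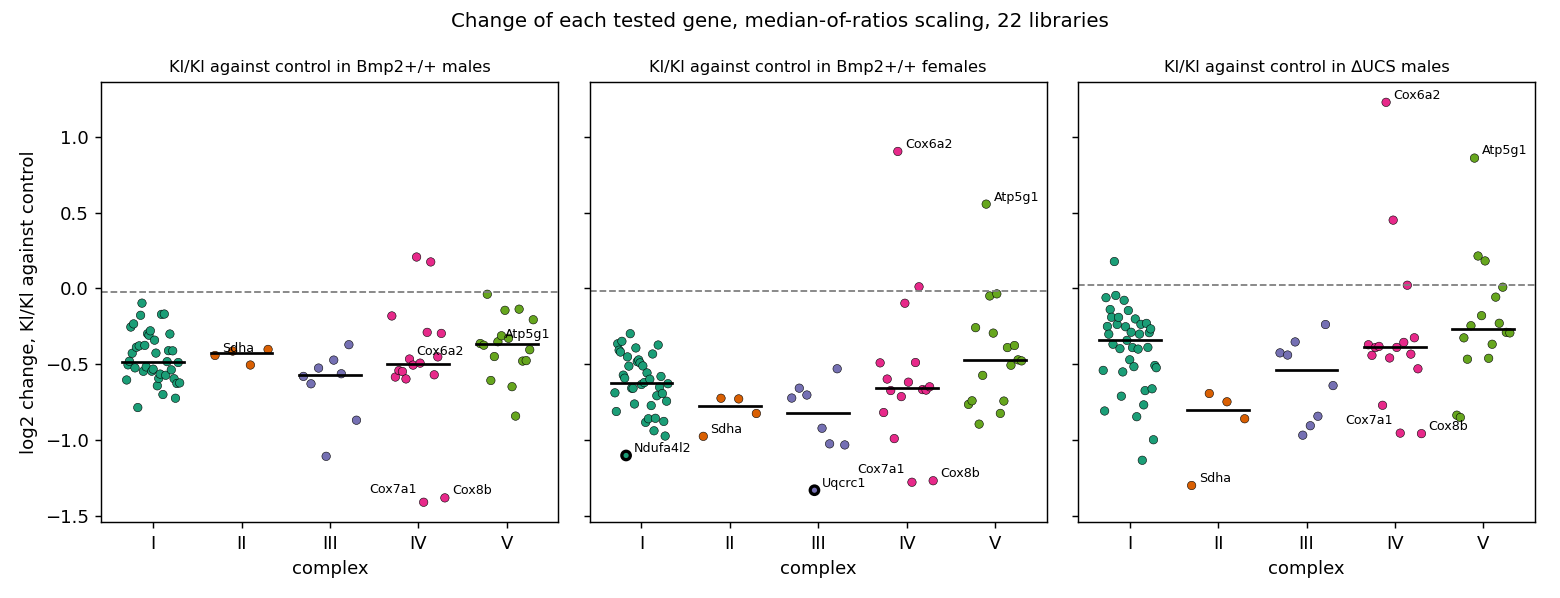
Log2 change of Kl/Kl against control for each of the 83 tested genes after median-of-ratios scaling, by complex (horizontal axis) and stratum (panels). Bars are the median of a complex, the dashed line is the median of all genes tested, and thick outlines mark adjusted p under 0.05 (limma): only Uqcrc1 and Ndufa4l2 in females have one.

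In complex I, the entry point for electrons from NADH, most genes sat close to the complex median, and the core subunits Ndufv1 and Ndufs1 lay below it. Ndufv1, the flavin-bearing subunit that takes up NADH electrons, was at TPM 111, 98.8, 86.1 and 75.0 in Bmp2+/+ male controls and 94.8, 66.1 and 52.9 in Kl/Kl. In females it was at 55.3, 99.6, 84.9 and 92.2 in controls and 61.3, 69.7 and 44.5 in Kl/Kl. In ∆UCS males it was at 109, 89.0, 108 and 111 against 62.8, 78.1, 77.2 and 49.8. With the deposited scaling only the ∆UCS groups did not overlap. The log2 change of Ndufv1 was −0.46, −0.49 and −0.65 in the 3 strata and did not pass the adjusted test.

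Ndufs1, the largest core subunit, which carries iron-sulfur clusters, had the lowest change of complex I in ∆UCS males. Its TPM there was 14.6, 12.02, 17.2 and 14.7 in controls and 6.79, 9.46, 9.88 and 5.77 in Kl/Kl, with no overlap. The log2 change of Ndufs1 was −0.82 (SE 0.27; limma adjusted p = 0.124) in ∆UCS males, −0.43 in Bmp2+/+ males and −0.50 in females.

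Ndufa4l2, a paralog of Ndufa4 known as a target of hypoxia signalling, was near the filter and varied among controls. Its deposited TPM in females was 2.90, 2.84, 2.29 and 1.65 in controls and 2.49, 0.733 and 0.285 in Kl/Kl, which overlap, and the left-out Kl/Kl library was at 2.31. After median-of-ratios scaling Ndufa4l2 was called in females, at a log2 change of −1.10 (SE 0.28; limma adjusted p = 0.0346, where 1.54% of all genes were called lower). On that scale its values were 3.43, 3.15, 2.87 and 1.86 in female controls and 1.602, 0.597 and 0.308 in the kept Kl/Kl libraries, with no overlap. With the deposited scaling the change was −0.77 and did not pass. In ∆UCS males the deposited change of Ndufa4l2 was 0.43, the highest of complex I. It lies in mm39 at chromosome 10, 127350836 to 127353024 on the plus strand, overlaps Shmt2 on the opposite strand, and had 20 to 440 estimated reads in a library.

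The change of Ndufa4l2 in females moved with which libraries were in the fit. Leaving out each of the 22 libraries in turn, it was called in 18 fits, with adjusted p from 0.0133 to 0.145. The call was lost without female control replicate 2 or 3 or Kl/Kl female replicate 3 or 4. Its transcript is GC-rich, at 60.7% and the 96.8th percentile of tested genes, and Kl/Kl female replicate 4 had the lowest ratio of GC-rich to GC-poor genes of all libraries (a log2 difference of −0.90 between the genes highest and lowest in GC). With a GC correction added to that scaling the change of Ndufa4l2 was −0.87 (limma adjusted p = 0.0285).

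At the other end of complex I, Ndufa7, an accessory subunit, had the highest deposited change in Bmp2+/+ males, at 0.06, and in females, at 0.14. Neither Ndufa7 value passed the test.

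Complex II, succinate dehydrogenase, also belongs to the citric acid cycle and is encoded by 4 nuclear genes. Sdha carries the flavin that oxidises succinate. In ∆UCS males its TPM was 53.1, 34.9, 52.1 and 49.1 in controls and 21.95, 30.1, 26.6 and 17.4 in Kl/Kl. Every Kl/Kl library lay below every control. The log2 change of Sdha there was −0.96 (SE 0.25; limma adjusted p = 0.0736), the lowest of complex II. In Bmp2+/+ males Sdha was at 44.3, 44.9, 25.1 and 29.3 in controls and 38.1, 35.7 and 18.8 in Kl/Kl, and in females at 36.6, 45.3, 39.8 and 45.7 against 23.2, 27.8 and 38.3. Those groups overlapped, at log2 changes of −0.28 and −0.50.

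The iron-sulfur subunit Sdhb and the membrane anchors Sdhc and Sdhd repeated the separation in ∆UCS males with the deposited scaling. Sdhb was at TPM 28.8, 28.9, 35.6 and 29.7 in controls and 22.5, 25.2, 23.2 and 23.99 in Kl/Kl. Sdhc was at 13.3, 12.6, 13.7 and 13.98 against 9.16, 10.9, 10.1 and 8.70. Sdhd was at 58.6, 54.3, 72.5 and 58.2 against 42.1, 40.6, 40.0 and 45.8. On that scale all 4 complex II genes thus separated in ∆UCS males at an unadjusted p under 0.05 (limma), and none passed the adjusted test. Of all genes, 2.1% lay lower without overlap there and 2.96% were lower at that p. Replicate 4 of the ∆UCS Kl/Kl males, the highest library for most genes, was the lowest of its group for Sdha and Sdhc. After median-of-ratios scaling only Sdha stayed apart, and the groups of Sdhb, Sdhc and Sdhd overlapped.

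In complex III, the cytochrome bc1 complex, Uqcrc1 had the lowest change in each stratum. It encodes a core subunit that faces the mitochondrial matrix and lies in mm39 at chromosome 9, 108765701 to 108778692 on the plus strand. In Bmp2+/+ males its TPM was 51.1, 51.1, 41.2 and 29.4 in controls and 44.8, 13.7 and 17.9 in Kl/Kl. In females it was 19.4, 51.5, 42.0 and 42.6 in controls and 28.8, 20.6 and 13.0 in Kl/Kl. Both pairs of groups overlapped, in females because control replicate 1 was low. In ∆UCS males Uqcrc1 was at 51.1, 41.9, 45.4 and 53.8 in controls and 30.3, 44.0, 29.5 and 22.5 in Kl/Kl, with 1 Kl/Kl library inside the control range. The left-out libraries were at 48.1 in males and 49.5 in females.

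The deposited log2 change of Uqcrc1 was −0.94 (SE 0.38), −0.86 (SE 0.38) and −0.62 (SE 0.35) in Bmp2+/+ males, females and ∆UCS males, and none passed. After median-of-ratios scaling it was −1.11, −1.33 and −0.97, and Uqcrc1 was called in females (SE 0.30; limma adjusted p = 0.0167). On that scale the female values were 22.99, 57.2, 52.6 and 47.9 in controls and 18.5, 16.8 and 14.1 in Kl/Kl, with no overlap, while the left-out Kl/Kl library stood at 48.5. In fits leaving out 1 library each, Uqcrc1 was called in 17 of 22, with log2 changes from −1.62 to −1.19 and adjusted p from 0.000951 to 0.0695. The call was lost without female control replicate 2, 3 or 4 or Kl/Kl female replicate 3 or 4, and with all 24 libraries no gene of the 5 complexes was called. With GC correction the change of Uqcrc1 was −1.29 (limma adjusted p = 0.0120).

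With the deposited scaling its partner core subunit Uqcrc2 separated in ∆UCS males, at TPM 26.7, 22.8, 31.9 and 26.9 in controls and 15.3, 18.5, 20.0 and 17.5 in Kl/Kl. The Rieske iron-sulfur protein Uqcrfs1, which passes electrons towards cytochrome c, was at 114, 91.5, 117 and 118 in ∆UCS controls and 59.8, 78.6, 90.5 and 84.3 in Kl/Kl, also without overlap. Of all genes, 2.1% lay lower without overlap there. After median-of-ratios scaling the groups overlapped for both genes. Uqcrh, the acidic hinge protein, had the highest change of complex III in each stratum, at −0.21, −0.05 and 0.10 with the deposited scaling.

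Complex IV held the widest range of changes, because several of its muscle isoforms differed from the general ones. Per kilobase of exon, Cox8b had the highest level of all 83 tested genes. Its median was 2260 reads per kb after division by each library's nuclear depth, ahead of Cox8a at 1079 and Cox6a1 at 1077. Exon length is here that of all annotated exons of a gene merged, 360 bases for Cox8b and 4237 for Atp5b. It can exceed the length of the transcript made, so the order of genes depends on the annotation. Cox8b is the isoform of subunit 8 found in heart, skeletal muscle and brown fat, and Cox8a is the general one. The lowest tested levels in complex IV were those of Cox6b2, the testis isoform of subunit 6b, at 5.18, and Cox4i2, below the filter, was at 2.99.

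Cox8b (mm39 chromosome 7, 140478858 to 140480360, minus strand) was at TPM 464, 391, 649 and 477 in Bmp2+/+ male controls and 271, 318 and 134 in Kl/Kl. In females it was at 382, 380, 364 and 372 in controls and 157, 212 and 311 in Kl/Kl. In ∆UCS males it was at 443, 367, 477 and 455 in controls and 260, 241, 191 and 546 in Kl/Kl. With the deposited scaling the Bmp2+/+ groups did not overlap in either sex, where 1.19% (males) and 1.64% (females) of all genes lay lower without overlap. In ∆UCS males 3 Kl/Kl libraries lay below all controls and replicate 4 above all. After median-of-ratios scaling the Bmp2+/+ male groups overlapped, while the female groups did not. The deposited log2 change of Cox8b was −1.21 (SE 0.30; limma adjusted p = 0.0590) in Bmp2+/+ males, −0.78 (SE 0.30; 0.138) in females and −0.61 (SE 0.27; 0.275) in ∆UCS males. The left-out libraries were at 428 in males, inside the control range, and 326 in females, below it.

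Cox7a1, the muscle and brown fat isoform of subunit 7a, followed the same order (mm39 chromosome 7, 29883569 to 29885504, plus strand). Its TPM was 102, 99.98, 130 and 109 in Bmp2+/+ male controls and 64.2, 58.5 and 30.1 in Kl/Kl. In females controls were within 89.2 and 91.1 and the kept Kl/Kl libraries at 38.9, 40.6 and 86.3. In ∆UCS males Cox7a1 was at 101, 87.6, 102 and 100 in controls and 48.0, 50.8, 47.3 and 140 in Kl/Kl. With the deposited scaling the Bmp2+/+ groups again did not overlap, and replicate 4 alone stood above the ∆UCS controls. The log2 change of Cox7a1 was then −1.25 (limma adjusted p = 0.0953), −0.80 and −0.61 in the 3 strata. After median-of-ratios scaling the Bmp2+/+ male groups overlapped. The change of Cox7a1 on that scale was −1.41 (SE 0.55; limma adjusted p = 0.228) in Bmp2+/+ males and −1.28 (SE 0.54; 0.203) in females. With the deposited scaling and without ∆UCS Kl/Kl replicate 4, both isoforms were called. In Bmp2+/+ males Cox8b was at −1.21 (limma adjusted p = 0.00713) and Cox7a1 at −1.25 (0.00895). These log2 changes were those of the main fit, in which all 6 groups share a spread per gene. In ∆UCS males Cox8b was at −0.92 (0.0476) and Cox7a1 at −0.99 (0.0456). Calls over all genes were more numerous in that fit too, at 1.63% (0.101% lower) in Bmp2+/+ males and 1.6% (0.272% lower) in ∆UCS males.

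With the deposited scaling the general isoforms had smaller changes, of −0.13, −0.16 and −0.18 for Cox8a and −0.12, −0.01 and −0.01 for Cox7a2. After median-of-ratios scaling they were −0.30, −0.65 and −0.53 for Cox8a and −0.29, −0.49 and −0.36 for Cox7a2, and none passed under either scaling. On that scale Cox8a in females was at 229, 210, 224 and 212 in controls and 98.5, 136 and 199.99 in the kept Kl/Kl libraries, with no overlap. A ratio of 2 genes in 1 library does not depend on how libraries are scaled. The log2 ratio of Cox8b to Cox8a, in reads per kb of exon, was 1.15 ± 0.07 (SD, n = 4) in Bmp2+/+ male controls and 0.10 ± 0.40 (SD, n = 3) in Kl/Kl. Female controls were at 1.07 ± 0.02 (SD, n = 4) and Kl/Kl females at 0.45 ± 0.36 (SD, n = 3), and the ∆UCS male groups at 1.04 ± 0.05 (SD, n = 4) and 0.62 ± 0.18 (SD, n = 4). Every Kl/Kl library, replicate 4 of the ∆UCS males at 0.87 included, lay below every control of its stratum.

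The differences in that ratio were −1.05, −0.62 and −0.43, with two-sided exact permutation p of 0.0571, 0.0571 and 0.0286, each the smallest its design allows. Adjusted over the 18 tests of isoform pairs by Benjamini-Hochberg, they were 0.206 each. With all 24 libraries the groups still did not overlap, the left-out libraries standing at 1.08 and 0.88, and each exact permutation p was 0.0286 (adjusted 0.129). The ratio of Cox7a1 to Cox7a2 differed by −1.08, −0.80 and −0.60, with exact permutation p of 0.0571, 0.114 and 0.0286, and overlapped in females. Over all 24 libraries it differed by −0.82, −0.62 and −0.60, with exact permutation p of 0.0857, 0.0857 and 0.0286 (adjusted 0.257, 0.257 and 0.129), and the groups overlapped in Bmp2+/+ males too, where the left-out library stood at 0.60 and the lowest control at 0.53. The pair had been seen to differ in TPM before the ratio was formed, so the ratio is not separate evidence.

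**Figure D3:**
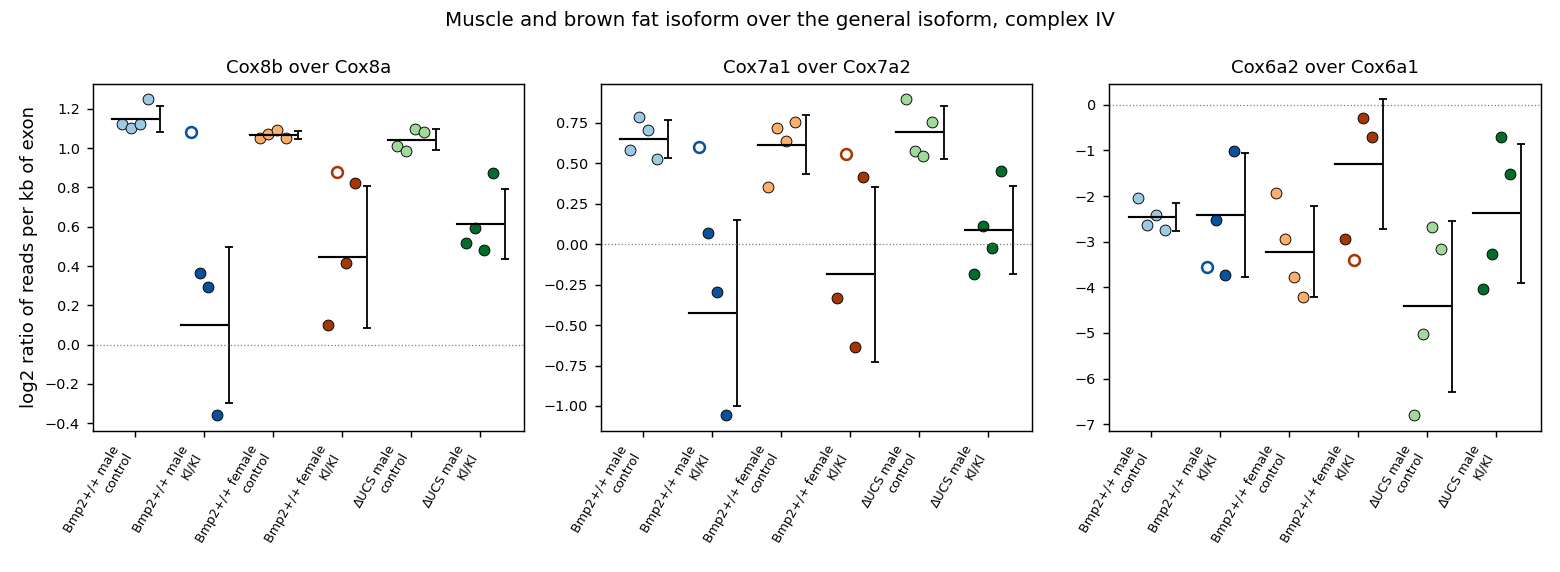
Log2 ratio of reads per kb of exon of a muscle isoform to the general isoform of complex IV, by group; points are libraries (open: the 2 left-out ones), bars the mean and whiskers 1 SD of the kept libraries. In the left panel the Cox8b to Cox8a ratio of every Kl/Kl library lies below every control of its stratum, while Cox6a2 to Cox6a1 on the right overlaps in each.

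The promoters of both isoform pairs, together with Cox6a1, are shown because the muscle and general isoforms differ in CpG content. They are RefSeq sequences of the 150 bases before each transcription start (build GRCm38.p6, older than the mm39 of the deposited table), 5′ to 3′ on the gene's strand, with CpG dinucleotides in capitals. Cox8b lies at chr7:140900447-140900596 on the minus strand, Cox8a at chr19:7217617-7217766 (minus), Cox7a1 at chr7:30184021-30184170 (plus), Cox7a2 at chr9:79759854-79760003 (minus) and Cox6a1 at chr5:115348959-115349108 (minus).
Cox8b: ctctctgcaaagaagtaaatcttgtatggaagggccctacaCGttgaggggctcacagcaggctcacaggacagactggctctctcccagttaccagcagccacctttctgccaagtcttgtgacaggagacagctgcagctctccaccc
Cox8a: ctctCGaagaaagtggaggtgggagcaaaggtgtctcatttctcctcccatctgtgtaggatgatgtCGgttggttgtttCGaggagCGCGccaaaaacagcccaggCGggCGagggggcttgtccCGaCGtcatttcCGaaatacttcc
Cox7a1: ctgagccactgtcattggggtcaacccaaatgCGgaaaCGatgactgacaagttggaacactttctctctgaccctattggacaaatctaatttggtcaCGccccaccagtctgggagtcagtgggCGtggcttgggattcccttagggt
Cox7a2: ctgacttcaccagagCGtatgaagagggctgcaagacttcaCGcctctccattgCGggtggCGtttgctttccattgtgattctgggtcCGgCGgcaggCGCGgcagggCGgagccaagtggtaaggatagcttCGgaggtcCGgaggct
Cox6a1: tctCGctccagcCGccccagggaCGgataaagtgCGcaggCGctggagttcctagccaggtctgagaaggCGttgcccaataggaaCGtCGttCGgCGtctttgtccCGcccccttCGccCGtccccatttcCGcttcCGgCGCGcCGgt

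The printed stretch holds 1 CpG in Cox8b and 4 in Cox7a1, against 10 in Cox8a, 11 in Cox7a2 and 18 in Cox6a1. In the wider window of 250 bases before the start the median was 14 CpG over the 69 of 85 genes with an entry and 6 over all 27025 promoters. The motif of nuclear respiratory factor 1 (GCGCANGCGC, either strand) was present in 13 of the 69 promoters (18.8%) against 4.23% of all. The ETS motif bound by GABP (CCGGAAG, either strand) was present in 12 (17.4%) against 7.83%. The estrogen-related receptor motif (TCAAGGTCA) was found in 1 (1.45%) against 0.422%, and the YY1 motif (AAGATGGC) in 1 (1.45%) against 1.83%. Of the 5 printed genes, Cox6a1 had matches, with nuclear respiratory factor 1 motifs 162 and 117 bases before the start and an ETS motif 16 bases before it. A match describes the letters of the window and is not a binding site.

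Cox6a2, the heart and skeletal muscle isoform of subunit 6a, was the most variable gene of the 5 complexes. Its TPM was 166, 86.2, 162 and 84.2 in Bmp2+/+ male controls and 110, 40.4 and 195 in Kl/Kl. In females it was 98.3, 73.8, 38.3 and 28.9 against 48.7, 290 and 198. In ∆UCS males it was 6.48, 18.1, 99.9 and 80.7 against 29.2, 48.5, 231 and 254. All 3 pairs of groups overlapped. The log2 change of Cox6a2 was −0.29 (SE 0.93), 1.39 (SE 0.91) and 1.56 (SE 0.85), and none passed. The summed level of 10 cardiomyocyte genes, such as Myh6 and Nppa, ranged as widely after median-of-ratios scaling, from 46.2 to 904 in ∆UCS controls and from 66.1 to 3755 in ∆UCS Kl/Kl. That of 10 skeletal muscle genes ranged from 8.17 to 258 and from 44.4 to 437 in the same groups. Their part in the values of Cox6a2 was not tested.

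Other complex IV genes differed little or overlapped. Cox4i1, the general form of subunit 4, had log2 changes of −0.01, 0.00 and −0.02 with the deposited scaling. Cox5a was at TPM 38.3, 33.5, 34.2 and 37.0 in ∆UCS controls and 27.6, 31.1, 32.8 and 43.2 in Kl/Kl, with replicate 4 highest. Cox5b was at 145, 128, 187 and 142 in Bmp2+/+ male controls and 146, 106 and 107 in Kl/Kl. Cox7a2l, which helps to join complexes III and IV into supercomplexes, had positive deposited changes of 0.33, 0.47 and 0.34, which median-of-ratios scaling reduced to 0.17, 0.01 and 0.02. Cox6b2 had the highest change of complex IV in Bmp2+/+ males, at 0.37.

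Complex V, the ATP synthase, lay nearest to the rest of the genes. The catalytic beta subunit Atp5b was at TPM 494, 397, 493 and 506 in ∆UCS controls and 304, 404, 376 and 266 in Kl/Kl, which overlap through 1 library on each side. The log2 change of Atp5b was −0.20, −0.25 and −0.50, and that of the alpha subunit Atp5a1 was −0.19, −0.28 and −0.48. Atp5k, a small membrane subunit, had the lowest change of complex V in Bmp2+/+ males, at −0.67 (SE 0.29; limma adjusted p = 0.389), and Atp5d, the delta subunit of the central stalk, in females, at −0.42. Atp5g1, 1 of 3 genes for the proton-carrying c ring, had the highest in females, at 0.94 (SE 0.48), and in ∆UCS males, at 1.07 (SE 0.45). In ∆UCS males Atp5g1 was at 0.923, 1.81, 5.34 and 4.98 in controls and 3.72, 3.51, 12.3 and 13.1 in Kl/Kl, which overlap. Atp5g1 had the lowest tested level of complex V per kb of exon, at 8.66, over 4912 bases of merged exon.

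Replicate 4 of the ∆UCS Kl/Kl males stood at an end of its group for most genes. With the deposited scaling it was the highest of its group for 62 of the 83 genes and the lowest for 11, among them Sdha, Ndufs1, Ndufv1, Uqcrc1, Atp5a1 and Atp5b, and it was neither for 10. After median-of-ratios scaling it was the highest for 80, and lay a median of 1.64 log2 units above the mean of the rest of its group. That gap was 1.93 for genes with under 1000 bases of exon, 1.59 for those of 1000 to 2000 and 1.05 for longer ones. Over all tested genes of the same lengths it was 0.41, 0.25 and −0.13. The gap of the nuclear subunit genes thus went with merged exon length in this library, as it did over all genes. Merged exon length can exceed that of the transcript made, so a gene may sit in a longer class than its transcript. The part of transcript length in the gap was not tested. Across the strata, the change of a gene did not follow merged exon length. Spearman's rho was 0.10, −0.04 and −0.12 over the 83 genes, which share their libraries.

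**Figure D4:**
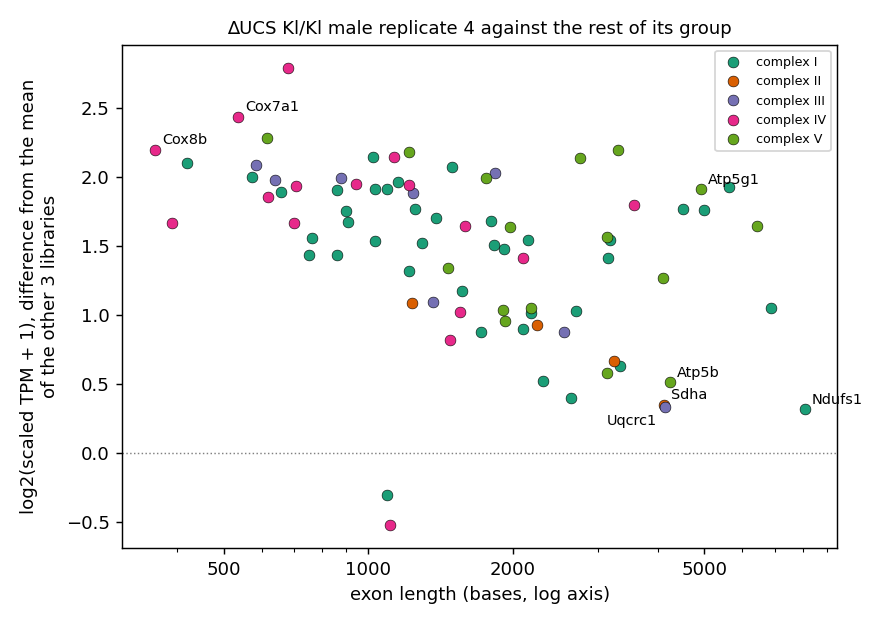
Difference in log2(scaled TPM + 1) between replicate 4 of the ∆UCS Kl/Kl males and the mean of the other 3 libraries (vertical axis), against exon length on a log axis, for the 83 tested genes; each point is a gene, coloured by complex. The medians are 1.93 under 1000 bases, 1.59 from 1000 to 2000 and 1.05 above. Exon length is that of all annotated exons merged, which can exceed the transcript made. Atp5g1, with 4912 bases by that measure, lies at 1.91. Ndufa4l2 and Cox6b2, with 1095 and 1108, lie below 0.

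Smooth muscle genes such as Myh11 and Acta2, which define the aortic wall, summed to 105 to 778 TPM after median-of-ratios scaling (scaled TPM) over all libraries. Summed markers of other cell types also differed between groups. The summed level of 10 brown adipocyte genes, mostly Ucp1, Cidea and Fabp3, was 221 to 603 scaled TPM in Bmp2+/+ male controls and 80.7 to 228 in Kl/Kl. In females it was 227 to 508 against 52.7 to 235, and in ∆UCS males 363 to 520 against 46.0 to 829. Ucp1, the uncoupling protein of brown fat, was detected in every library, at a deposited TPM of 22.2 to 486, and its highest value was in ∆UCS Kl/Kl replicate 4. Zic1 and Lhx8, transcription factors used as brown fat markers, were at most 0.260 and 0.222. Replicate 4 had the highest brown adipocyte level and the highest median over the 83 genes of the 10 kept Kl/Kl libraries. The 5 lowest in one measure included 4 of the 5 lowest in the other, and the single lowest library was not the same. Both measures come from the same scaled libraries, so this is a description. Replicate 4 also had the highest summed scaled TPM of all libraries for cardiomyocyte (3755), smooth muscle (778) and fibroblast (153) genes. It was not the highest for general adipocyte, macrophage, endothelial, skeletal muscle or airway epithelium genes.

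Of 7 tested brown adipocyte genes, Otop1, a proton channel, fell in Bmp2+/+ males (log2 change −1.47; limma adjusted p = 0.0306), and none was called in the other strata with the deposited scaling. Summed macrophage genes were 50.1 to 211 scaled TPM in Bmp2+/+ male controls and 487 to 571 in Kl/Kl, 62.6 to 108 against 481 to 772 in females, and 60.7 to 118 against 265 to 403 in ∆UCS males. For the summed macrophage genes the left-out libraries, labelled Kl/Kl, stood at 137 scaled TPM in males and 71.4 in females. Both values lay within the range of their own controls. Whether those animals were Kl/Kl as labelled was not tested. Of 9 tested macrophage genes, 5, 7 and 5 were called higher, and the rest were not called in either direction. With the deposited scaling limma called 1.1%, 2.6% and 0.644% of all genes in either direction in the 3 strata. Summed general adipocyte genes overlapped in each stratum, at 1282 to 2540 against 1863 to 2816, 2106 to 2308 against 1253 to 2374, and 1685 to 2498 against 869 to 2219. Summed airway epithelium genes were 489 to 1839 against 449 to 1757 scaled TPM in Bmp2+/+ males, 344 to 1610 against 2252 to 2789 in females and 9.21 to 806 against 660 to 2385 in ∆UCS males. Of 7 tested airway genes, Reg3g and Scgb3a1 rose in females (log2 changes 3.66 and 3.71; limma adjusted p = 0.00193 and 0.0151) and in ∆UCS males (3.54 and 3.80; 0.00393 and 0.0182), and 0 were called in Bmp2+/+ males. Summed skeletal muscle genes were 54.3 to 1077 against 13.4 to 179 in Bmp2+/+ males and 227 to 677 against 112 to 159 in females, and summed fibroblast genes 56.7 to 72.3 against 62.8 to 98.4, 53.2 to 84.8 against 90.7 to 116, and 63.2 to 105 against 35.6 to 153 in the 3 strata. The female groups did not overlap for airway epithelium, skeletal muscle and fibroblast genes. The part of any cell type in the values of the nuclear subunit genes was not tested.

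**Figure D5:**
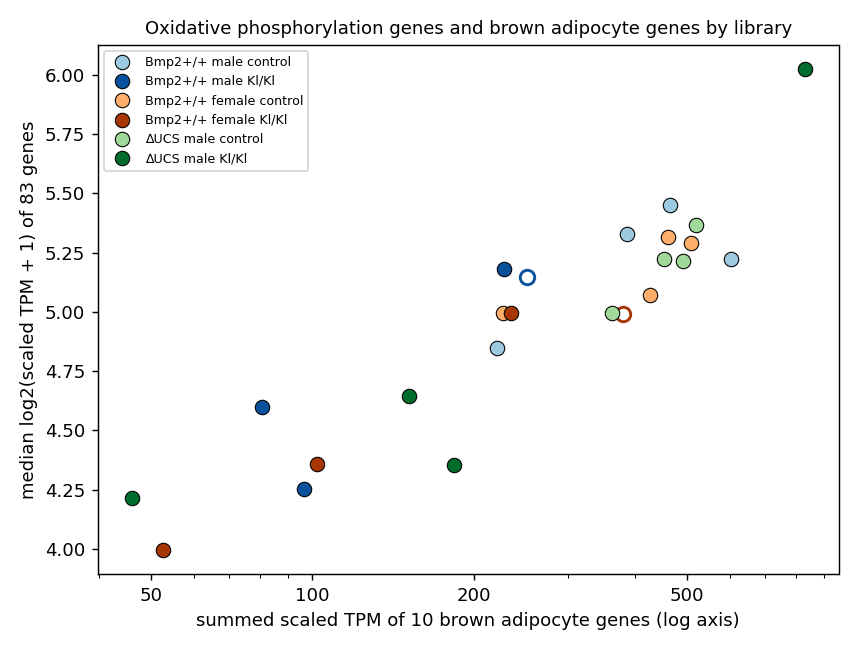
Median log2(scaled TPM + 1) of the 83 genes against the summed scaled TPM of 10 brown adipocyte genes (log axis), 1 point per library after median-of-ratios scaling; open points are the 2 left-out libraries. ∆UCS Kl/Kl replicate 4 stands alone at the upper right.

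Other genes of the pathway were taken from fixed lists. Of 12 tested citric acid cycle genes all had negative log2 changes in each stratum, with medians of −0.51, −0.63 and −0.71, and of 15 fatty acid oxidation genes 14 did, with medians of −0.57, −0.68 and −0.86. These medians were lower than those of the nuclear subunit genes, a difference that was not tested. The 35 tested assembly factors, which build the complexes, had medians of −0.26, −0.13 and −0.05, the 8 electron and metabolite carriers −0.12, −0.19 and −0.15, and the 8 tested regulators −0.10, −0.13 and 0.04. None of these 5 lists had a called gene with the deposited scaling. After median-of-ratios scaling, genes called lower in females were Cyc1, the cytochrome of complex III, Ogdh and Dlst of the citric acid cycle, Acads, Acadvl, Acadl and Cpt2 of fatty acid oxidation, the assembly factors Atpaf2 and Ecsit, and the regulators Esrra and Perm1. On that scale Acads was called lower in Bmp2+/+ males and Acadvl and Acadl in ∆UCS males. Of all genes, 1.54% were called lower on that scale in females, 0.252% in Bmp2+/+ males and 0.564% in ∆UCS males.

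Between Bmp2 genotypes, no gene of the 5 complexes passed the test. In control males, ∆UCS against Bmp2+/+ gave 0 called genes by limma (0% of all genes) and 0 at an unadjusted p under 0.05, where 1.79% of all genes were lower and 0.383% higher. The median log2 difference over the 83 genes was −0.27, where that of all genes was −0.17, and after median-of-ratios scaling it was −0.05, against −0.01. Negative differences numbered 72 of 83 (86.7%), against 79.5% of all genes, and after median-of-ratios scaling 51 (61.4%), against 52.1%. With the deposited scaling 1 gene, Ndufc1, lay lower without overlap, where 0.896% of all genes did. Ndufc1, an accessory subunit of complex I, was at TPM 23.7, 21.4, 26.1 and 24.9 in ∆UCS controls and 28.6, 26.5, 35.9 and 30.3 in Bmp2+/+ male controls. In Kl/Kl males the same contrast gave 0 called genes (0% of all genes) and a median of −0.04, against −0.01 for all genes.

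The difference of the Kl/Kl effect between strata was tested as an interaction. For ∆UCS against Bmp2+/+ males it called 0 genes (0% of all genes), with 0 at an unadjusted p under 0.05, where 0.997% of all genes were lower and 1.07% higher. The median was 0.27, against 0.16 for all genes. For females against males it called 0 as well (0% of all genes), with 0 at an unadjusted p under 0.05, where 0.141% were lower and 1.29% higher, and the median was 0.13, against 0.19. Median-of-ratios scaling gave medians of 0.09 and −0.17, so the sign for females depends on the scaling. The ∆UCS median also turned negative with all 24 libraries, at −0.020 after that scaling and −0.039 by voom. Limma called 0 genes in these comparisons under both scalings with 22 and with 24 libraries, and so did voom. The genotype comparisons and the Kl/Kl comparisons share libraries. Library set, inferred from the spelling of the library names, is part of the model, because all ∆UCS libraries were in set 1 and all female libraries in set 2.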

How the data were processed

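Polyadenylated RNA of mouse aortas was sequenced from directional libraries, per the labels' protocols. The authors deposited 1 table of TPM, whose build (mm39) and tool (Partek) come from the submitters' processing notes. Not given in the sources used here are the aligner, annotation release and counting rules. Each deposited TPM column sums to 482073, and TPM is scaled by genomic span, introns included. Levels of different genes were therefore compared only as estimated reads per kb of exon. Exon length is that of all exons annotated for a gene by GENCODE, merged, and not that of a single transcript. Reads were estimated from the lowest deposited value of each gene, taken as a constant of 1e-04 read. Of values between 0.5 and 20 reads, 73.2% came out within 0.05 of a whole number. The table had 0 unused sample columns and 0 pairs of identical libraries.

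Genes with TPM of at least 1 in at least 4 libraries were tested on log2(TPM + 1) by limma 3.58.1 under R 4.3.3, with lmFit and a trended eBayes. This scale understates the change of genes with a low TPM. As TPM is scaled by genomic span, these include long genes with many reads. Ndufs4 had 2342 to 7879 estimated reads and a median TPM of 1.11. The shares of all genes called rest on the genes that passed this filter, except those of voom. Group means (6) and library set were fitted, without the 2 libraries whose Xist and Ddx3y went against the labelled sex. P-values were adjusted by Benjamini-Hochberg over all 9933 genes, at a threshold of 0.05. Isoform ratios were tested with exact two-sided permutation tests in scipy 1.17.1. Alternatives were median-of-ratios scaling, all 24 libraries, other filters and pseudocounts, voom, a replicate block, age, GC correction, other sample sets and leaving out each library. The model fits were tested on simulated data.

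Named genes were those past the threshold under either scaling, the highest and lowest change of each complex, the isoform pairs and preset core subunits. Genes named for a count of 5 or fewer, such as Ndufc1 and Atp5g3, were picked after their values were seen. The genes and gene lists were chosen with earlier results of these data known. Of the 85 genes, 32 overlap a gene on the opposite strand and 6 one on the same strand, and 17 pseudogene rows share their names. Reads of such copies cannot be told apart here, since the counting rules are unknown.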

Additional observations from a re-analysis of the deposited data

Results flagged for a closer look

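Of 136 sets of libraries of 1 group examined for a value far from the rest, 16 held one by Dixon's criterion at 95%, where chance alone flags about 1 in 20 groups. Replicate 4 of the ∆UCS Kl/Kl males stood above its group for the median log2(TPM + 1) over the 83 genes, at 5.53, for complex I, at 4.73, and for complex III, at 6.25. It also stood above its group for the TPM of Cox7a1, at 140, Cox7a2, at 77.4, and Atp5k, at 279, and below it for the log2 ratio of Cox6b2 to Cox6b1, at −8.50.

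Among the ∆UCS male controls, replicate 2 was low for Cox7a1, at 87.6, Ndufv1, at 89.0, and Atp5b, at 397. In the same group Ndufa4l2 was high in replicate 4, at 3.77, and the log2 ratio of Cox4i2 to Cox4i1 was low in replicate 1, at −8.20. Ndufa4l2 was high in Bmp2+/+ male control replicate 1, at 6.43, and the log2 ratio of Cox8b to Cox8a in replicate 4 of that group, at 1.25. Cox7a2l was high in female control replicate 1, at 13.8, and in ∆UCS Kl/Kl replicate 1, at 17.3.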

How the results depend on the processing

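Of 260 counts of called genes under other settings, 246 stayed at 0 and 14 were higher. The main fit called 0 of these genes in each comparison, so no count could fall. Of 260 medians 238 moved by less than the spread between libraries. In the Kl/Kl comparisons, no gene called under a setting changed sign under another. The median for females against males did turn negative after median-of-ratios scaling. Median-of-ratios scaling gave 2 called genes in females and medians of −0.65 in females, −0.38 in ∆UCS males and −0.17 for females against males. Adding GC correction gave 2 and −0.63, 1 (Sdha) and −0.37, and −0.17 in the same order, where 5.13% and 2.07% of all genes were called in females and ∆UCS males. Voom gave 2 and −0.65, −0.40 and −0.17. With all 24 libraries and that scaling the medians were −0.55 in females, −0.38 in ∆UCS males, −0.0061 for ∆UCS against Bmp2+/+ controls, −0.020 for the ∆UCS interaction and −0.19 for females against males, and voom gave −0.57, −0.40, −0.012, −0.039 and −0.19. A TPM of at least 5 gave 1 called gene in ∆UCS males, Sdha (limma adjusted p = 0.0389), where 8.64% of all genes were called.

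Leaving out 1 library gave 0 to 2 called genes in Bmp2+/+ males and 0 to 2 in ∆UCS males. Cox8b was called in Bmp2+/+ males without ∆UCS Kl/Kl replicate 3 or 4, Bmp2+/+ control replicate 1, Kl/Kl male replicate 3 or Kl/Kl female replicate 4, and Sdha in ∆UCS males without Kl/Kl male replicate 4 of the Bmp2+/+ group. The share of all genes called ran from 0.362% to 4.13% and from 0.383% to 3.9% in those fits. Median changes ran from −0.37 to −0.27 in Bmp2+/+ males, −0.24 to −0.06 in females and −0.23 to 0.02 in ∆UCS males. All 6 groups share a spread per gene in the fit, so leaving out a library of another group can change a call through that spread. Beyond that, the cause of these shifts was not tested.

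Replicate numbers did not pair the libraries: of 17 same-numbered pairs 3 had a correlation over 0.1, with a range of −0.477 to 0.322. Some library names carry consecutive numbers at the same age in a control and a Kl/Kl animal. Pairing by those names was not tested, and the replicate block uses the replicate number only. A replicate block gave 2 called genes in Bmp2+/+ males, Cox8b (−1.34; limma adjusted p = 0.0363) and Cox7a1 (−1.40; 0.0453), where 0.956% of all genes were called in either direction and 0.0604% lower. The replicate block with median-of-ratios scaling gave medians of −0.60 in Bmp2+/+ males, −0.68 with 2 called genes in females and −0.38 in ∆UCS males. Without the block, 1.54% of all genes were called lower in females on that scale. The share with the block is not given here. Ndufa4l2, with 20 estimated reads in Kl/Kl female replicate 4, was among the genes with fewest reads.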
